A study of Mus musculus with 6 samples.

Results

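This section describes 9 mouse genes that carry out or assist the breakdown of sphingolipids inside the lysosome, out of 19933 genes measured by name. They are Gm2a, Psap, Hexa, Glb1, Gla, Galc, Arsa, Smpd1 and Asah1. Each was read from the probeset, the set of array probes summarised into a single value, that carried its symbol alone, and each had only 1 such probeset. The genes were selected with their measured values in this same comparison already known. Their differences between the siRNAs are therefore given as a description, without a test.

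The cells were NCU10K, an immortalised mouse neural crest line grown in DMEM with fetal calf serum. Of 6 cultures, 3 received a single Nedd4 siRNA and 3 received a low GC control siRNA, all with the lipid reagent RNAiMAX, and total RNA was collected after 48 h as 3 biological replicates per siRNA. Each RNA (300 ng) was read on its own Affymetrix mouse gene array, and the values below are log2 signals. Nedd4 encodes a ubiquitin ligase, and the comparison asked which transcripts differ when it is depleted. No other Nedd4 siRNA and no rescue was measured on arrays, so the effect of losing Nedd4 and other effects of the siRNA cannot be told apart. In RNA of whole cultures, fewer cells of a kind and less RNA per cell cannot be told apart either.

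Sphingolipids such as gangliosides, sulfatide and sphingomyelin reach the lysosome from the plasma membrane and are taken apart in steps. Soluble hydrolases remove the sugars, sulfate or phosphocholine until ceramide remains, and ceramide is then split into sphingosine and a fatty acid. Several steps need small activator proteins that present the membrane lipid to the enzyme. Inherited loss of most of these proteins causes a lysosomal storage disease, often with damage to neurons or to myelin.

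The targeted gene was checked first. Nedd4 stood at 10.45, 10.94 and 10.68 in Nedd4 siRNA arrays 1 to 3, against 12.24, 12.35 and 12.34 in control siRNA arrays 1 to 3. It was 3.07-fold lower with Nedd4 siRNA, and all 3 knockdown arrays lay below the control arrays (log2 fold change −1.62, SE 0.117, limma adjusted p = 3.16e-06). Array medians ran between 6.28 and 6.35 and interquartile ranges between 3.06 and 3.33. With 6 arrays the precision is limited: a typical probeset had a residual SD of 0.117 (the median over all of them, in log2 units).

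Among the activator proteins, Gm2a was the member with the greatest difference. It encodes the GM2 activator protein, which lifts ganglioside GM2 out of the membrane for β-hexosaminidase A. Gm2a (probeset 10376208) was at 10.39, 10.47 and 10.33 in the Nedd4 siRNA arrays, against 8.56, 8.85 and 8.93 in the control siRNA arrays. Every knockdown array stood well above every control array, and the control arrays spread more widely. The means were 10.40 ± 0.0702 with Nedd4 siRNA and 8.78 ± 0.195 with control siRNA (SD, n = 3 each), a log2 fold change of 1.62 (SE 0.106), or 3.07-fold higher. Psap encodes prosaposin, the precursor that is cut into the saposins, the activators of several other steps in the pathway. Psap (probeset 10363430) was at 12.66, 12.71 and 12.60 in the Nedd4 siRNA arrays, against 12.49, 12.56 and 12.38 in the control siRNA arrays. The groups did not overlap, but they lay close together, with a log2 fold change of 0.18 (SE 0.0885). The 2 activators thus differed in how far they moved between the siRNAs.

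The 4 glycosidases also differed among themselves. Galc encodes galactosylceramidase, which removes galactose from galactosylceramide and psychosine, lipids of myelin, and whose loss causes Krabbe disease. Galc (probeset 10401968) was at 10.05, 10.09 and 9.89 in the Nedd4 siRNA arrays, against 8.25, 8.60 and 8.44 in the control siRNA arrays. The lowest knockdown array was far above the highest control array. Its means were 10.01 ± 0.106 with Nedd4 siRNA and 8.43 ± 0.175 with control siRNA (SD, n = 3 each), a log2 fold change of 1.58 (SE 0.106), or 2.99-fold higher. Gla, on the X chromosome, encodes α-galactosidase A, which acts on globotriaosylceramide and is deficient in Fabry disease. Gla (probeset 10606714) was at 9.25, 9.22 and 9.27 in the Nedd4 siRNA arrays, against 8.85, 8.86 and 8.86 in the control siRNA arrays. The difference was small, 1.31-fold higher with a log2 fold change of 0.39 (SE 0.0817), yet Gla had the tightest replicates of all members in each group (SD 0.0252 with Nedd4 siRNA and 0.00577 with control siRNA, n = 3 each).

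Hexa encodes the α subunit of β-hexosaminidase A, the enzyme that the product of Gm2a serves. Hexa (probeset 10585874) was at 8.41, 8.57 and 8.59 in the Nedd4 siRNA arrays, against 8.13, 8.40 and 8.18 in the control siRNA arrays. The groups only just failed to overlap, since Nedd4 siRNA array 1 and control siRNA array 2 were almost equal, and the log2 fold change was 0.29 (SE 0.0996). Glb1 encodes β-galactosidase, which removes the terminal galactose of ganglioside GM1. Glb1 (probeset 10589889) was at 9.29, 9.23 and 9.14 in the Nedd4 siRNA arrays, against 9.14, 9.18 and 9.0 in the control siRNA arrays, and the groups overlapped (log2 fold change 0.11, SE 0.0905). Thus the enzyme subunit that works with Gm2a showed a much smaller difference than Gm2a itself.

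The sulfatase and the acid sphingomyelinase showed little difference. Arsa encodes arylsulfatase A, which removes sulfate from sulfatide and is deficient in metachromatic leukodystrophy. Arsa (probeset 10431601) was at 8.22, 8.11 and 8.06 in the Nedd4 siRNA arrays, against 7.85, 8.14 and 7.91 in the control siRNA arrays, a log2 fold change of 0.16 (SE 0.0995). Control siRNA array 2 lay within the range of the knockdown arrays. Smpd1 encodes acid sphingomyelinase, the enzyme lost in Niemann-Pick disease types A and B. Smpd1 (probeset 10555946) was at 11.73, 11.68 and 11.61 in the Nedd4 siRNA arrays, against 11.65, 11.65 and 11.62 in the control siRNA arrays. The groups overlapped and the log2 fold change was 0.03 (SE 0.0838), the smallest of the 9 members.

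Asah1 alone among the members was lower in the knockdown. It encodes acid ceramidase, which performs the final step, the splitting of ceramide, and is deficient in Farber disease. Asah1 (probeset 10578361) was at 9.02, 9.14 and 9.23 in the Nedd4 siRNA arrays, against 10.36, 10.18 and 10.10 in the control siRNA arrays. No array of the knockdown came near the control range. The means were 9.13 ± 0.105 with Nedd4 siRNA and 10.21 ± 0.133 with control siRNA (SD, n = 3 each). The log2 fold change was −1.08 (SE 0.0987), so that Asah1 was 2.12-fold lower with Nedd4 siRNA.

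**Figure D1:**
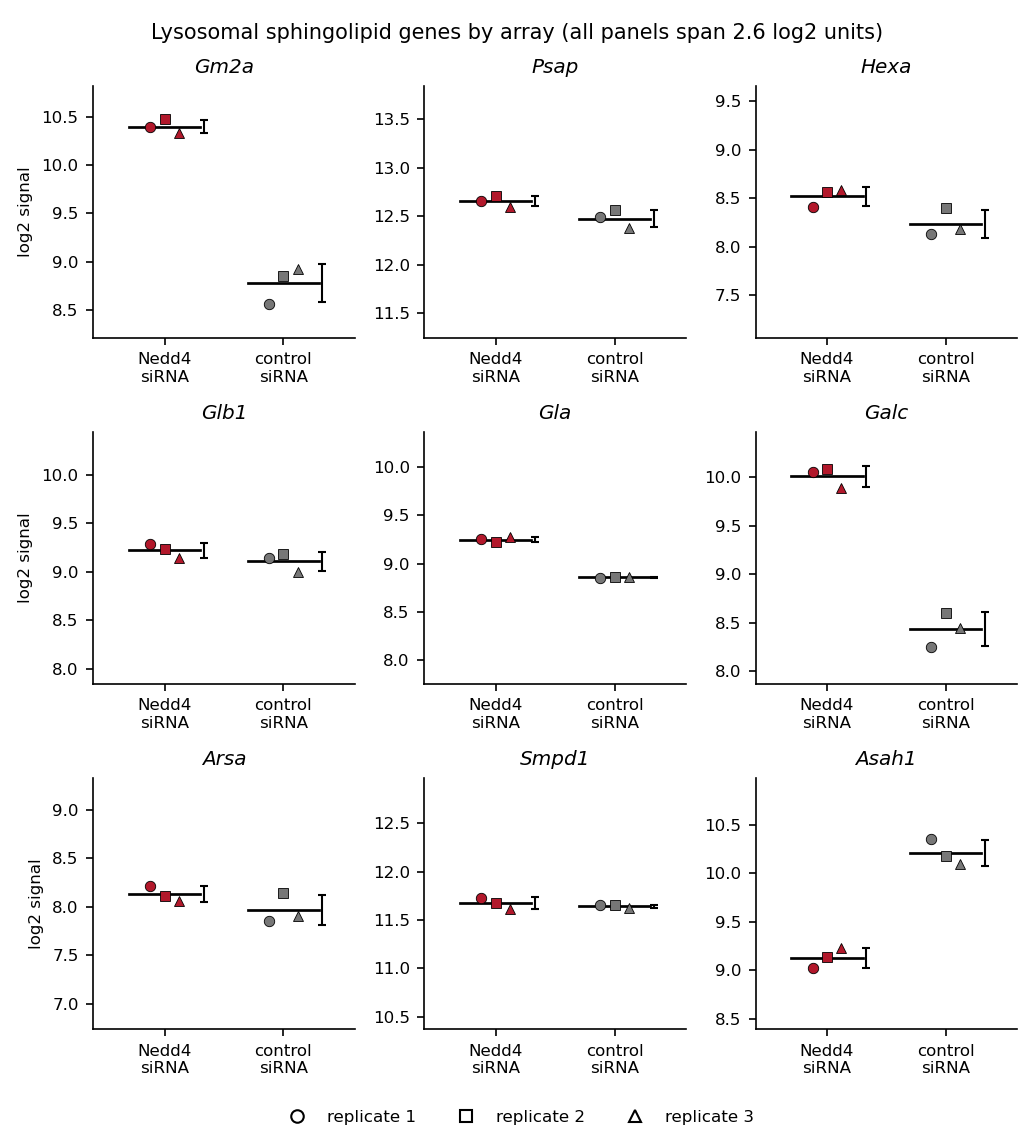
Log2 signal of the 9 genes in each array, 1 panel per gene, with Nedd4 siRNA on the left in red and control siRNA on the right in grey. Symbols are single arrays, horizontal lines are means and error bars are SD of 3 arrays, and every panel spans the same log2 range. Gm2a and Galc stand apart upwards and Asah1 downwards, while Smpd1, Arsa and Glb1 overlap.

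The 9 genes did not move as a block. With Nedd4 siRNA, 5 of 9 had every knockdown array above every control array (Gm2a, Psap, Hexa, Gla and Galc), where 16.1% of all named genes did, and 1 of 9 (Asah1) had every knockdown array below, where 15.6% did. In the limma fit over all probesets, 3 members were higher at an adjusted p under 0.05 (Gm2a, Galc and Gla) and 1 was lower (Asah1), beside 9.62% and 9.13% of all named genes. Because the members were chosen from this comparison, nothing is read from these counts. The median log2 fold change of the members was 0.18, against −0.0167 over all named genes, and the median size of a change, whatever its sign, was 0.287, against 0.113 over all named genes. Outside Gm2a, Galc and Asah1, the members' log2 fold changes lay between 0.03 and 0.39.

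**Figure D2:**
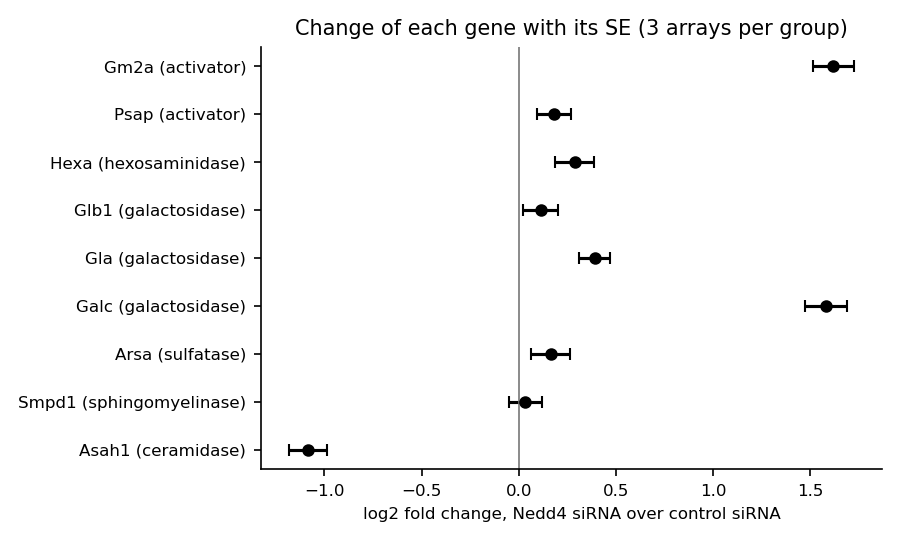
Log2 fold change of each gene, Nedd4 siRNA over control siRNA, ordered by the role of its product, with bars of 1 SE from limma. Gm2a at 1.62 and Galc at 1.58 lie far to the right, Asah1 at −1.08 to the left, and the other 6 genes between 0.03 and 0.39.

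Within the groups the median replicate SD of the members lay on either side of 0.117, the residual SD of a typical probeset. The members' SD ranged from 0.0252 to 0.106 in the Nedd4 siRNA arrays, with a median of 0.0755. In the control siRNA arrays it ranged from 0.00577 to 0.195, with a median of 0.133. Control siRNA array 2 gave the highest control value for 7 of the 9 members, tied values included, and lay on average 0.0793 above the control mean. The exceptions were Gm2a, highest in control siRNA array 3, and Asah1, highest in control siRNA array 1. With any array left out, Gm2a lay between 1.51 and 1.69, Galc between 1.49 and 1.67 and Asah1 between −1.14 and −1.01 on the log2 fold change scale.

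The profile of Gm2a over the 6 arrays was closest to those of Ide, Acvr1 and Anln, with Pearson's r of 0.9991, 0.9989 and 0.9988. These genes encode insulin-degrading enzyme, a type I BMP and activin receptor, and the cytokinesis scaffold anillin. Their own differences were smaller than that of Gm2a, with log2 fold changes of 0.38, 0.53 and 0.45. Among 19924 other genes, 969 (4.86%) had r above 0.95 with Gm2a. These r values rest on 6 arrays of 2 groups and are a description only.

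The stretches of DNA at the start of the members' transcripts are shown for the 2 genes with the largest rises and for Gla, the only member that holds the longer of the motifs searched. RefSeq promoter windows (GRCm38.p6, 250 bases before to 50 after a transcript start) matched 8 of the 9 members in 9 windows, and Asah1 had no entry. Searched on both strands, where each motif reads the same, were CACGTG, the core bound by many basic helix-loop-helix factors, and TCACGTGA, a form that contains CACGTG and is favoured by TFEB and its relatives, which drive lysosomal genes. The windows are Gm2a on chr11:55097735-55098034 (plus strand), Galc on chr12:98259410-98259709 (minus strand) and Gla on chrX:134600956-134601255 (minus strand), each written 5′ to 3′ along its gene, with matches in capitals.
Gm2a: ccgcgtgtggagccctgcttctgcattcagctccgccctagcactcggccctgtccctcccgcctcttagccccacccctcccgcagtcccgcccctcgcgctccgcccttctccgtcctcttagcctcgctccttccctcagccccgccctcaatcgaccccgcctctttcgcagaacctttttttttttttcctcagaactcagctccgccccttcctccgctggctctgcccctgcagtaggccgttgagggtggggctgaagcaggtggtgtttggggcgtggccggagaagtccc
Galc: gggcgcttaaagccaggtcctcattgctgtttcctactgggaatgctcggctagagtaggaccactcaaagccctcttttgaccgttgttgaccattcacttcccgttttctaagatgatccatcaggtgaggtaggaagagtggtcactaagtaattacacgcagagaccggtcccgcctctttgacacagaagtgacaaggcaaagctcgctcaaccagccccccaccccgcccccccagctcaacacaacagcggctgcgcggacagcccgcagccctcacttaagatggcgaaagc
Gla: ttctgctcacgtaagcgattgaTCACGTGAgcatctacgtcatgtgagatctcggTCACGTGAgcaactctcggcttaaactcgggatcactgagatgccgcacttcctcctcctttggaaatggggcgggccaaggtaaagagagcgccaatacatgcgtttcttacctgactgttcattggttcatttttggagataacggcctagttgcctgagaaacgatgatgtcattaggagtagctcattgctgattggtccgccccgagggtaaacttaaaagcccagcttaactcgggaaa
The Gla window holds TCACGTGA 2 times, its CACGTG cores beginning 227 and 194 bases before the transcript start. No CACGTG lies in the Gm2a and Galc windows, nor in those of Psap, Hexa and Smpd1. The Arsa window holds 1 CACGTG, beginning 16 bases before the start, and the Glb1 window 1, beginning 48 bases before it. Of 32851 windows of this length, 7.15% hold CACGTG and 0.974% hold TCACGTGA. A match describes letters only and binding was not measured.

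Beyond the members, 6 lists of related genes were read, again written with earlier results of these arrays known. Together 16 of 117 measured genes rose and 18 fell, or 29.1%, where 18.7% of all named genes passed in either direction, and the median log2 fold change was 0.0167. Without Nedd4 siRNA array 1 the number that rose was 10, where 2962 of all probesets passed, against 4579 in the main fit. The methods' t-test called 7 genes higher and 10 lower, where 2134 of all probesets passed. The list of other lysosomal proteins near this route, not all of them sphingolipid hydrolases, showed changes in each direction. Of 10 measured, 2 rose, 1 fell and 7 did not pass, with a median log2 fold change of 0.16. Pla2g15, a lysosomal phospholipase that also acylates ceramide, was at 9.31, 9.25 and 9.21 in the Nedd4 siRNA arrays, against 8.27, 8.69 and 8.58 in the control siRNA arrays. All knockdown arrays were higher, by a log2 fold change of 0.74 (limma adjusted p = 0.000508). Scarb2, which encodes the lysosomal membrane protein LIMP-2, rose by 0.46 log2 units (adjusted p = 0.0147). Npc2, a lysosomal sterol carrier, had a log2 fold change of −0.33 (adjusted p = 0.0308). Neu1, the lysosomal sialidase, and Ctsa, the cathepsin that protects it, had log2 fold changes of −0.20 and 0.08 and did not pass (adjusted p = 0.254 and 0.68). The calls for Pla2g15, Scarb2 and Npc2 were not made by the methods' t-test (adjusted p = 0.0541 for Pla2g15, 0.167 for Scarb2 and 0.116 for Npc2). The call for Npc2 was also lost with median centring (0.0592) and without Nedd4 siRNA array 1, 2 or 3 or control siRNA array 1 or 2 (adjusted p = 0.0838, 0.0507, 0.127, 0.058 and 0.102).

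Enzymes listed for sphingolipid turnover outside the lysosome were also split. Of 20 measured, 4 were higher, 4 lower and 12 not past the threshold, with a median log2 fold change of −0.0433. That list includes Cerk, a kinase, and Smpdl3a, which is also found in the lysosome. The methods' t-test, and the fit without Nedd4 siRNA array 1, Nedd4 siRNA array 2 or control siRNA array 3, called 2 higher. Smpdl3a, a secreted and lysosomal phosphodiesterase related in sequence to Smpd1, was at 10.32, 10.16 and 10.12 in the Nedd4 siRNA arrays, against 9.24, 9.22 and 9.27 in the control siRNA arrays. It rose 1.94-fold (log2 fold change 0.96, limma adjusted p = 1.79e-05), whereas Smpd1 differed by 0.03 on the same scale. Smpd4 was at 8.82, 9.02 and 8.72 in the Nedd4 siRNA arrays, against 9.62, 9.81 and 9.93 in the control siRNA arrays, and fell 1.91-fold (log2 fold change −0.93, adjusted p = 9.31e-05). Smpd3, the Golgi-associated form, was at 7.83, 7.71 and 7.74 in the Nedd4 siRNA arrays, against 7.18, 7.10 and 7.14 in the control siRNA arrays, and rose by 0.62 log2 units (adjusted p = 0.000296). The groups of each gene lay apart.

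Acer3, an alkaline ceramidase, was lower, as acid ceramidase Asah1 was, with a log2 fold change of −0.59 (limma adjusted p = 0.00061). The ceramidases Asah2, Acer1 and Acer2 did not pass, with log2 fold changes of 0.10, 0.10 and −0.22. Acer1 and Acer2 had low signals, below the median of all values (6.33). Acer1 had means of 5.49 with Nedd4 siRNA and 5.40 with control siRNA, and Acer2 of 5.65 and 5.87. Cerk, the kinase that phosphorylates ceramide, was lower as well, with a log2 fold change of −0.52 (adjusted p = 0.00131). The cytosolic sialidase Neu2 had a log2 fold change of −0.39 (adjusted p = 0.015), but its call was lost under the methods' t-test (0.108) and without Nedd4 siRNA array 1 or 3 or control siRNA array 3 (adjusted p = 0.0948, 0.0588 and 0.0613).

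Of 35 measured genes of sphingolipid synthesis, 4 rose, 7 fell and 24 did not pass, with a median log2 fold change of −0.00333. The greatest of these falls was that of Sptssa, a small subunit of serine palmitoyltransferase, which opens the pathway. Sptssa was at 7.09, 7.34 and 7.30 in the Nedd4 siRNA arrays, against 8.70, 8.80 and 8.42 in the control siRNA arrays, 2.63-fold lower in the knockdown (log2 fold change −1.40, limma adjusted p = 7.17e-06). B4galt6, a lactosylceramide synthase, was at 8.35, 8.35 and 8.24 in the Nedd4 siRNA arrays, against 8.99, 9.19 and 9.06 in the control siRNA arrays (log2 fold change −0.77, adjusted p = 0.000101). The arrays of the knockdown were the lower for each of these genes. Kdsr, the reductase of the second step, rose by 0.47 log2 units (adjusted p = 0.00248), and Samd8, which makes ceramide phosphoethanolamine, rose by 0.64 log2 units (adjusted p = 0.000713). Ormdl2, from a family that restrains serine palmitoyltransferase, had a log2 fold change of −0.63 (adjusted p = 0.000951). Its relatives went the other way, Ormdl1 with a log2 fold change of 0.32 (adjusted p = 0.0262) and Ormdl3 with 0.17 (adjusted p = 0.355, not past). The methods' t-test did not call Ormdl2 or Ormdl1 (adjusted p = 0.0532 and 0.0607), and called 2 genes of the list higher and 3 lower. Without Nedd4 siRNA array 1 limma called 2 higher.

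The galactolipid branch, whose products Galc and Arsa degrade, can be set beside these enzymes. Ugt8a, which makes galactosylceramide, was at 6.41, 6.13 and 6.06 in the Nedd4 siRNA arrays, against 6.90, 6.88 and 6.78 in the control siRNA arrays. It was 1.57-fold lower with Nedd4 siRNA, where Galc was 2.99-fold higher (log2 fold change −0.65, limma adjusted p = 0.000842, and 0.0541 by the methods' t-test). Gal3st1, which adds the sulfate to form sulfatide, had a log2 fold change of −0.43 (adjusted p = 0.00416). St3gal5, the synthase of ganglioside GM3 and outside the galactolipid branch, had a log2 fold change of −0.44 (adjusted p = 0.00606). The methods' t-test did not make that call (0.0648). B4galnt1, a later ganglioside enzyme, had a log2 fold change of 0.37 and did not pass (limma adjusted p = 0.097). Fa2h did not pass either (log2 fold change −0.02, adjusted p = 0.953). Its means, 5.25 with Nedd4 siRNA and 5.27 with control siRNA, lay below the first quartile of all values (5.47). Gal3st1, St3gal5, B4galnt1 and Fa2h were picked from the list after their values were seen.

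**Figure D3:**
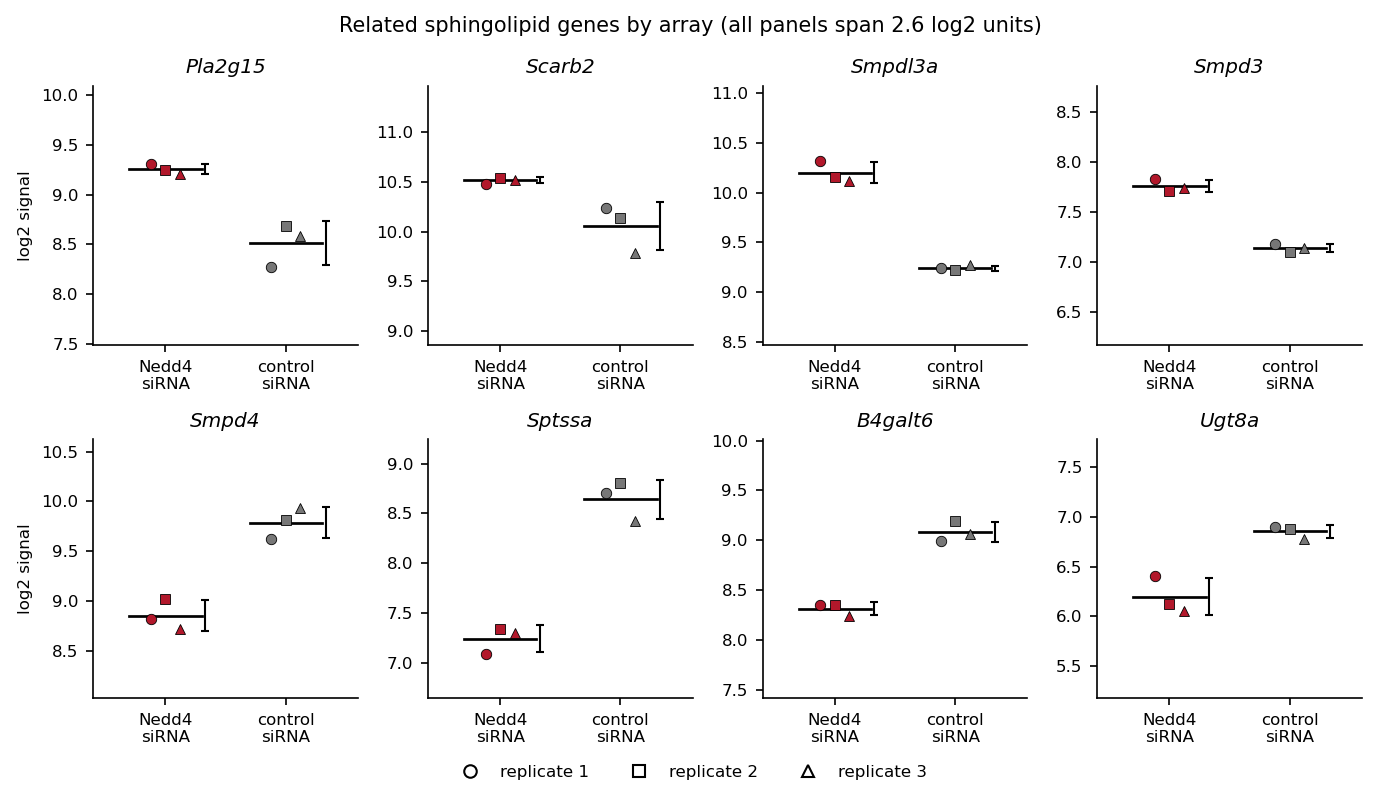
Log2 signal of 8 genes from the related lists in each array, with Nedd4 siRNA on the left in red and control siRNA on the right in grey. Symbols are single arrays, lines are means and bars are SD of 3 arrays. Pla2g15, Scarb2, Smpdl3a and Smpd3 stand higher with Nedd4 siRNA, and Smpd4, Sptssa, B4galt6 and Ugt8a lower.

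Most lysosomal hydrolases reach the lysosome on mannose 6-phosphate, a tag that is built and uncovered in the Golgi. The list read for enzyme delivery also held genes outside this tag route, among them Sort1, Sorl1, Grn, Lrp1, Gpr37 and Gpr37l1. Of its 13 measured genes, 3 fell and 10 did not pass (median log2 fold change −0.0233). Nagpa, the enzyme that uncovers the tag, was at 7.50, 7.65 and 7.45 in the Nedd4 siRNA arrays, against 8.70, 8.65 and 8.61 in the control siRNA arrays. The knockdown arrays all lay far below the control arrays, and Nagpa was 2.17-fold lower (log2 fold change −1.12, limma adjusted p = 6.61e-06). Igf2r, a receptor for the tag, had a log2 fold change of −0.46 (adjusted p = 0.00669, and 0.087 by the methods' t-test). Gga2, a sorting adaptor, had a log2 fold change of −0.34 (adjusted p = 0.0377), and lost its call by the methods' t-test (0.172), with median centring (0.0703) and without Nedd4 siRNA array 1, 2 or 3 or control siRNA array 1 or 2 (adjusted p = 0.153, 0.0554, 0.0991, 0.0843 and 0.126). The methods' t-test thus called 1 gene of the list lower. M6pr, the other receptor, was not analysed here.

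The transcription factors TFEB, TFE3 and MITF switch on lysosomal genes and are held in the cytoplasm by Rag GTPases and folliculin when nutrients are plentiful. Tfeb and Tfe3 overlapped between the siRNAs, with log2 fold changes of 0.09 (95% interval −0.111 to 0.298) and 0.02 (95% interval −0.222 to 0.256). Without Nedd4 siRNA array 1, Tfeb had a log2 fold change of 0.02. Mitf had a log2 fold change of 0.28 with no overlap, but did not pass (limma adjusted p = 0.0572). It passed with quantile normalisation (0.0351), with median centring (0.0465) and without the dimmest 25% of probesets (0.0497), whereas the mean of its probesets gave 0.15 (adjusted p = 0.353). Of 13 measured genes of this group, 3 rose and 10 did not pass (median log2 fold change 0.0933). Fnip2, a partner of folliculin, rose by 0.59 log2 units (adjusted p = 0.000669). Rragb rose by 0.57 log2 units (adjusted p = 0.0138), a call not met by the methods' t-test (0.213). Rragc had a log2 fold change of 0.33 (adjusted p = 0.0379), and lost its call by that test (0.154) and without Nedd4 siRNA array 1 or 3 or control siRNA array 1 or 2 (adjusted p = 0.172, 0.108, 0.131 and 0.057). The methods' t-test called 1 gene of the group higher and 1 lower, and limma called 5 higher with quantile normalisation or without the dimmest 25% of probesets. The activity of these factors is not a measurement of the arrays.

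**Figure D4:**
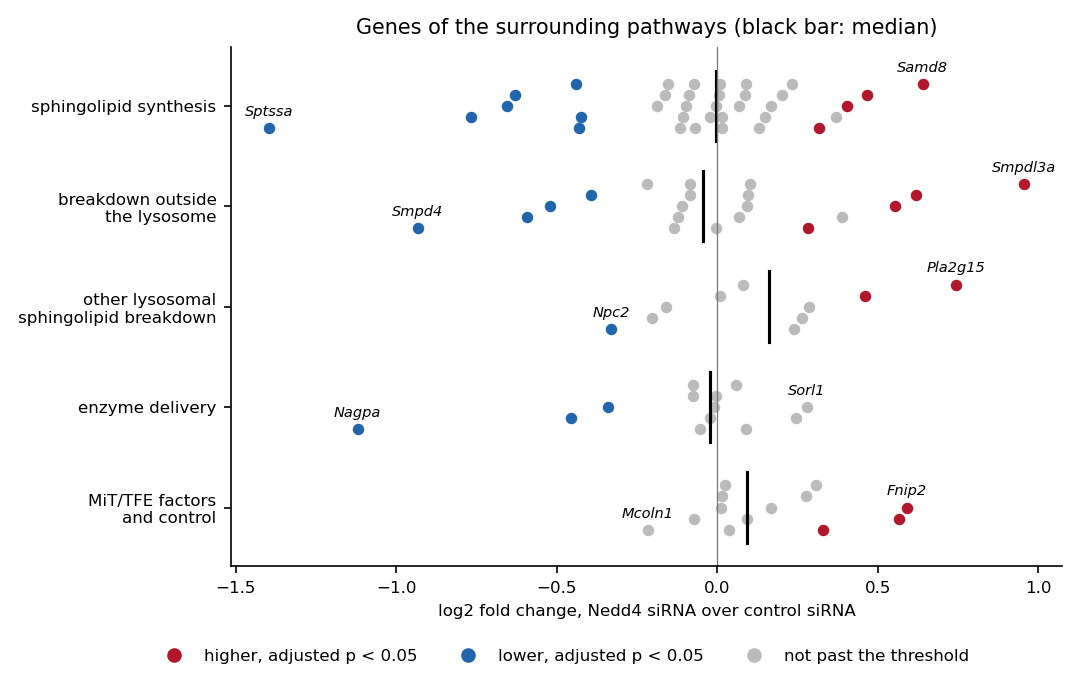
Log2 fold change, Nedd4 siRNA over control siRNA, of each measured gene in 5 lists around the pathway, with a black bar at each list's median and the extreme genes named. Red points rose and blue points fell at a limma adjusted p under 0.05, grey points did not pass, and each list has its median between −0.0433 and 0.16.

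Cell type markers were read beside these values. Of 11 neural crest markers, 10 stood above the array median of 6.33, Sox10 and Ngfr among them, and 6 of the 11 fell and 2 rose. Sox10 was at 10.65, 10.73 and 10.53 in the Nedd4 siRNA arrays, against 11.08, 11.19 and 10.93 in the control siRNA arrays (log2 fold change −0.43, limma adjusted p = 0.00864, and 0.088 under the methods' t-test). Erbb3 had a log2 fold change of −1.14 (adjusted p = 2.93e-05). Snai2 and Ets1 had log2 fold changes of −0.33 and −0.53 (limma adjusted p = 0.0293 and 0.00245). The methods' t-test did not call Snai2 or Ets1 (adjusted p = 0.107 and 0.0614). The 2 that rose were Sox9, with a log2 fold change of 0.66 (adjusted p = 0.000337), and Twist1, with 0.31 (adjusted p = 0.0419, and 0.123 under the methods' t-test). The summed linear signal of the list was 10200 to 11100 with Nedd4 siRNA and 13600 to 14000 with control siRNA. Snai2 had the highest signal of the list, and the sum is weighted to such bright genes. Galc and the galactolipid enzymes are best known from myelinating glia, whose markers were mixed, with 2 of 9 higher and 3 lower. Of these, Pmp2, a myelin lipid carrier, had a log2 fold change of −3.24 (adjusted p = 2.1e-09) and Cnp of −1.58 (adjusted p = 3.62e-06), while Fabp7 had a log2 fold change of 1.20 (adjusted p = 6.85e-06) and Egr2 of 0.90 (adjusted p = 0.000288, and 0.057 under the methods' t-test). With Fabp7, their summed signal was 9750 to 10400 with Nedd4 siRNA and 8800 to 9180 with control siRNA. Fabp7 was at 12.02, 11.95 and 12.04 in the Nedd4 siRNA arrays, against 10.89, 10.89 and 10.63 in the control siRNA arrays. Pmp22, which had the highest signal of the list, had a log2 fold change of −0.22 and did not pass (adjusted p = 0.185). The sum is weighted to these bright genes and does not give the direction of the list, whose median log2 fold change was −0.0567. The part of these shifts in the values of the sphingolipid genes was not tested.

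Macrophages are rich in lysosomes, so their markers were read too. Of 12, 9 lay below the array median and 6 below its first quartile of 5.47, including Adgre1, Csf1r, Mrc1 and Spi1, and 11 did not pass. The exception was Cd68, which encodes a glycoprotein of late endosomes and lysosomes. Cd68 was at 6.23, 6.52 and 6.28 in the Nedd4 siRNA arrays, against 8.24, 8.58 and 8.11 in the control siRNA arrays (log2 fold change −1.97, limma adjusted p = 1.47e-06). With it, the summed linear signal of the list was 631 to 637 with Nedd4 siRNA and 855 to 937 with control siRNA. Of 6 smooth muscle markers 2 rose, among them Pdgfrb with a log2 fold change of 0.54 (adjusted p = 0.00129). Tagln, Cnn1 and Myh11 lay below the array median and did not pass, nor did Acta2. Pdgfrb had the highest signal of the list. With it, the sum was 3900 to 4130 with Nedd4 siRNA and 2710 to 3050 with control siRNA.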

How the data were processed

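NCU10K cells carrying Nedd4 siRNA or control siRNA were profiled on 6 arrays, 3 biological replicates per siRNA. The authors deposited log2 values for 28440 probesets, given to 2 decimals, made with RMA background correction, GC correction and mean probe summarisation in Partek (version 6.5, submitters' processing notes). No further normalisation was applied. A single gene symbol belongs to 21780 probesets, several symbols to 1618 and no symbol to 5042. Gene values were read from probesets with a single symbol, taking the highest mean.

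The comparison of siRNAs used limma 3.58.1 (R 4.3.3, lmFit and eBayes, no covariate, Benjamini-Hochberg over all probesets, threshold 0.05), which was tested on simulated data. Counts used pandas 2.3.3 in Python 3.11.15. Members, gene lists and tests were chosen with earlier results of these data known. Named are all members, Nedd4, up to 6 genes past the threshold per related list by smallest p (at least 2 genes per list), Neu1, Ctsa, Tfeb, Tfe3 and Mitf, the listed cell type markers, and the 3 genes most like Gm2a. Some further genes of the related lists were named beside these after their values were seen. Alternatives were the methods' t-test (an ANOVA by siRNA with step-up adjustment), eBayes with trend and robust, the replicate block, quantile normalisation, median centring, leaving out the dimmest 25% of probesets, the mean of a gene's probesets, and leaving out each array in turn. Promoter windows came from RefSeq (GRCm38.p6). Some genes of the pathway are not reported here.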

Additional observations from a re-analysis of the deposited data

How the results depend on the processing

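The members' differences are a description, and how they fared over the 13 alternatives is no support for them. Hexa did not pass in the main limma fit (adjusted p = 0.0747). It passed with quantile normalisation (adjusted p = 0.0496) and without control siRNA array 2 (0.0288), but stood at 0.22 without Nedd4 siRNA array 3. Smpd1 turned to −0.0108 with quantile normalisation. Of 27 called related genes named by the rule, 15 kept their call in all 13 alternatives. The methods' t-test called 2134 probesets, against 4579 by limma, and 7 related genes higher and 10 lower, against 16 and 18. Leaving out an array gave 2962 to 4312 probesets, the lowest without Nedd4 siRNA array 1, with 10 to 17 related genes higher and 13 to 18 lower. Tfe3, not past the threshold, turned to −0.0067 with quantile normalisation, and ranged from −0.0567 to 0.108 when an array was left out, below 0 without Nedd4 siRNA array 2 (−0.0567), control siRNA array 1 (−0.0167) or control siRNA array 3 (−0.0417). The cause was not tested. Deviations of same-numbered arrays correlated at −0.0123, 0.472 and −0.0131, so the numbers were not taken to pair the cultures. With the replicate block 4962 probesets passed, Hexa among them (adjusted p = 0.0483), and not every array correlated best with its own number. The 3 arrays per siRNA limit the smaller differences.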

Other observations

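Lysosomal hydrolases of other glycans and lipids were likewise divided. Of 26 measured, 3 rose, 3 fell and 20 did not pass, with a median log2 fold change of 0.07. Without control siRNA array 2, or with quantile normalisation, 5 rose. Ppt2, a lysosomal thioesterase, was at 7.15, 7.19 and 7.33 in the Nedd4 siRNA arrays, against 7.86, 7.82 and 7.93 in the control siRNA arrays, a log2 fold change of −0.65 (limma adjusted p = 0.000308). Among enzymes that degrade heparan sulfate, Sgsh had a log2 fold change of −0.55 (adjusted p = 0.000957) and Idua of 0.46 (adjusted p = 0.00327). Siae, a sialic acid esterase, rose by 0.49 log2 units (adjusted p = 0.00183). Man2b2, a mannosidase, had a log2 fold change of 0.32 (adjusted p = 0.03), and lost its call by the methods' t-test (0.084) and without Nedd4 siRNA array 1 or 2 or control siRNA array 1 or 3 (adjusted p = 0.126, 0.103, 0.0936 and 0.0717). Fuca1, the lysosomal fucosidase, had a log2 fold change of −0.45 (adjusted p = 0.0329) although its groups touched at 8.62, and lost its call by that test (0.261), with median centring (0.0578) and without Nedd4 siRNA array 1 or 3 or control siRNA array 1 or 2 (adjusted p = 0.12, 0.107, 0.0881 and 0.119).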
